A study of Mus musculus with 6 samples.

Results

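The genes described here encode the beta subunits of the sodium pump (Atp1b1, Atp1b2 and Atp1b3) and small membrane proteins of the FXYD family that regulate it (Fxyd1, Fxyd5 and Fxyd6). They were chosen by name, 6 of the 54093 genes in the expression table, and all 6 were expressed well enough to be tested. Fxyd1 RNA was lower in every right atrium (RA) under volume overload (VO) than in every sham RA, at 0.577 times the sham level, and Fxyd5 RNA was higher in every VO library, at 1.23 times the sham level. Atp1b1 was 0.837 times its sham level, also without overlap between groups in the deposited FPKM but by a small margin, while Atp1b3 stood at 1.01 times. None of these differences passed correction over all tested genes in the test used here, while the study's own test had Fxyd1 among the genes lower in VO.

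The data are RNA-seq of RA free wall myocardium from wild-type C57BL/6 mice, male or female, on postnatal day 21 (P21). The VO pups had received a fistula between the abdominal aorta and the inferior vena cava on P7, which sends arterial blood straight back to the right heart, and the sham pups had an operation without a fistula. Each group held 3 libraries, named here sham 1 to sham 3 and VO 1 to VO 3, and the labels do not say whether a library came from a single animal, so p-values measure the spread between these libraries. The libraries held between 15963082 and 17237903 fragments on genes. Levels are FPKM, fragments divided by gene length and scaled to library size. Fold changes were taken on log2(FPKM + 0.1) and tested with limma (two-sided) across 12627 genes with a mean of at least 1 FPKM. Adjusted p-values follow Benjamini and Hochberg.

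The sodium pump exports sodium and imports potassium at the cost of ATP, and so sets the gradients on which the action potential and the sodium-calcium exchanger of a cardiomyocyte depend. Its catalytic alpha subunit reaches the membrane only together with a glycosylated beta subunit, which also affects its affinity for potassium. FXYD proteins are single-span partners that tune the pump: phospholemman, the product of Fxyd1, holds back the cardiac pump until it is phosphorylated after adrenergic stimulation.

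Several libraries stood apart in markers of other cells. The summed FPKM of 9 leukocyte markers was 216 to 261 in the sham libraries, 253 in VO 2, 338 in VO 3 and 1248 in VO 1. The summed FPKM of 5 adipocyte markers was at most 7.72 in the other libraries and 392 in VO 3, where the brown fat gene Ucp1 was at 253.6 FPKM and was listed at 0 in the other 5 libraries. The 6 Schwann cell markers summed to 53.7 FPKM in VO 3 and to between 13.2 and 16.0 elsewhere. The 12 cardiomyocyte markers, Myh6 and Tnnt2 among them, were high in all libraries and summed to 21461 to 27898 FPKM in sham and to 10156 to 18599 in VO, lowest in VO 1. Among the other marker lists, the 6 mesothelial markers summed to 30.4 to 98.3 FPKM in sham and 36.5 to 95.7 in VO, the 8 fibroblast markers to 1029 to 1054 and 1050 to 1459, the 6 endothelial markers to 189 to 200.1 and 196 to 206, and the 6 mural cell markers to 228 to 299 and 173 to 243. The 6 neuronal markers summed to 9.65 to 10.4 FPKM in sham and 5.92 to 20.2 in VO, the 4 ventricular markers to 121 to 308 and 92.7 to 143, and the 8 skeletal muscle markers to 149 to 207 and 57.9 to 106, of which Ckm, also active in the heart, held most.

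**Figure D1:**
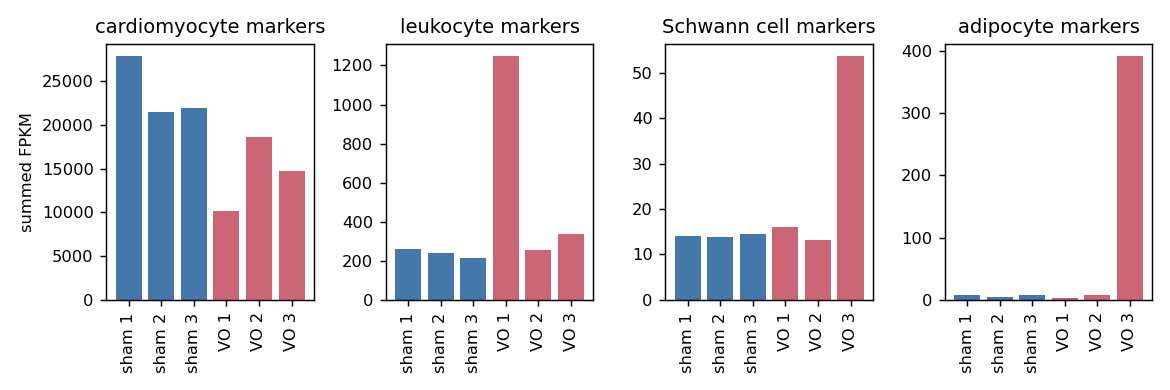
Summed FPKM (y axes) of the markers of 4 cell types in each library (x axes); blue bars are sham and red bars VO. The leukocyte sum peaks in VO 1 at 1248, the Schwann cell and adipocyte sums peak in VO 3 at 53.7 and 392, and the cardiomyocyte sum is lowest in VO 1.

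Phospholemman is the main FXYD protein of heart muscle. Fxyd1 (ENSMUSG00000036570) is a protein-coding gene on the minus strand of chromosome 7 (GRCm38), from 31051678 to 31057199. Its FPKM was 89.8, 63.3 and 59.0 in sham 1, 2 and 3, and 28.4, 52.3 and 43.5 in VO 1, 2 and 3. The highest VO library lay below the lowest sham library, and VO 1 was lowest of all. The means were 70.7 ± 16.7 in sham and 41.4 ± 12.1 in VO (SD, n = 3 libraries each). The log2 fold change was -0.79 (standard error 0.26, 95% interval -1.40 to -0.18), with an unadjusted p of 0.018 and a limma adjusted p of 0.404, which placed Fxyd1 546th of 12627 genes by p-value. Between 1125 and 3055 fragments per library lay behind these values, a counting error of at most 2.98%, well under the spread between libraries. The study took Fxyd1 up as a T-tubule gene from those that its own test, on counts, called lower in these same VO libraries. Its direction here is therefore not independent evidence, and the limma adjusted p differs from the study's call.

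The Fxyd1 fold kept its direction without any single library, as it must where the groups do not overlap. The log2 fold change was -0.54 without VO 1 and -0.98 without VO 2, and the unadjusted p was 0.060 without sham 1, the library with the highest level. In bulk tissue, fewer cardiomyocytes and less Fxyd1 RNA per cardiomyocyte cannot be told apart. All 12 cardiomyocyte markers had a negative log2 fold change, with a median of -0.55, and 6 of them had an unadjusted p under 0.05. Over all tested genes 12.0% had such a p, 8.08% lower in VO. Per 1000 FPKM of the summed cardiomyocyte markers, a scale set after the values were seen, Fxyd1 was at 3.22, 2.95 and 2.69 FPKM in sham 1, 2 and 3 and at 2.79, 2.81 and 2.96 in VO 1, 2 and 3, so that the groups overlapped. On the same scale the other 5 genes were higher in every VO library than in every sham library. Fxyd5 was at 0.191 ± 0.0222 FPKM in sham and 0.423 ± 0.197 in VO (SD, n = 3 each). The sum was itself lower in every VO library, so any gene that is level or falls less is raised on this scale. Atp1b3, at a log2 fold change of 0.0081 in FPKM, was among those 5, so the scale gives no separate result for them. Myl7 and Actc1 were the largest parts of that sum in each library, and their own FPKM was lower in all 3 VO libraries. Their log2 fold changes were -0.81 and -0.86, near the -0.79 of Fxyd1, so the overlap of Fxyd1 depends on the markers summed. Myl4 and Nppa also fell more than Fxyd1, and the rest of the 12 markers fell less, Ryr2 least at -0.13. Whether Fxyd1 RNA per cardiomyocyte differed was not tested.

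The study measured Fxyd1 by qRT-PCR as well and reported it significantly lower in VO. It does not say whether the same animals were used. Its primers show which part of the transcript was read there. Both match 11 of the 17 Fxyd1 transcripts of GENCODE vM21 and no other gene, and enclose 112 bases.
Fxyd1 forward primer: tccattcacctacgattaccaca
Fxyd1 reverse primer: gaatttgcatcgacatctcttgc
The RNA-seq values cover the whole 2186-base gene model, not these 112 bases.

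Fxyd5 encodes dysadherin, a pump regulator that is also known for weakening cell-cell adhesion. Fxyd5 (ENSMUSG00000009687) lies on the same strand of chromosome 7, from 31032722 to 31042481, with only Fxyd7 between it and Fxyd1. The gaps are 31 bases between Fxyd5 and Fxyd7 and 210 bases between Fxyd7 and Fxyd1. FPKM of Fxyd5 was 4.62, 4.36 and 4.50 in sham 1, 2 and 3, and 6.55, 4.96 and 5.27 in VO 1, 2 and 3. Every VO library lay above every sham library, with VO 1 highest. The means were 4.49 ± 0.128 and 5.59 ± 0.842 (SD, n = 3 each), and the log2 fold change was 0.30 (standard error 0.13, 95% interval -0.0069 to 0.61, unadjusted p = 0.054, limma adjusted p = 0.414). It was 0.18 without VO 1, the library with the highest leukocyte markers, whose part in the Fxyd5 value was not tested. With 301 to 498 fragments per library, Fxyd5 was the most thinly read of the 6 genes, with a counting error of up to 5.76%.

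Fxyd6 encodes phosphohippolin, a family member best known from the nervous system. Fxyd6 (ENSMUSG00000066705) lies on the plus strand of chromosome 9, from 45370185 to 45396159, and is followed 3509 bases later by Fxyd2. Its FPKM was 8.83, 6.85 and 7.27 in sham 1, 2 and 3, and 11.8, 8.04 and 8.36 in VO 1, 2 and 3. The groups overlapped, since sham 1 lay above VO 2 and VO 3. The means were 7.65 ± 1.04 and 9.41 ± 2.10 (SD, n = 3 each), and the log2 fold change of 0.28 (standard error 0.18, 95% interval -0.14 to 0.70, limma adjusted p = 0.497) was 0.11 without VO 1. The fibroblast sum (1459 FPKM) and the leukocyte sum were highest in VO 1 as well, and their part in the Fxyd6 value was not tested.

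Because Fxyd1 and Fxyd5 are close neighbours on a single strand with differences of opposite sign, their promoters are shown with those of Fxyd6 and of Atp1b1, the most abundant of the 6 genes. The sequences are from RefSeq (GRCm38.p6), which held a promoter for 5 of the 6 genes, and each runs 5′ to 3′ from 250 bases before to 50 bases after a start site. Capitals mark matches, on either strand, to TATAAA, the core of the TATA box, to GGGCGG, the GC box that Sp1 binds, to CCAAT, the site of NF-Y, or to the CArG box of serum response factor. These motifs were picked after the expression values were known.
Fxyd1, minus strand of chr7:31054804-31055103: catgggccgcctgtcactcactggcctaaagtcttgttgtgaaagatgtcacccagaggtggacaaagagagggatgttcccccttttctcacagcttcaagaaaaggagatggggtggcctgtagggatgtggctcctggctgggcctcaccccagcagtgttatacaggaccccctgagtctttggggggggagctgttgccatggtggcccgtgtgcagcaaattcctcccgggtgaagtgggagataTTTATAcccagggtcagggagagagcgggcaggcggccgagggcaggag
Fxyd5, minus strand of chr7:31042282-31042581: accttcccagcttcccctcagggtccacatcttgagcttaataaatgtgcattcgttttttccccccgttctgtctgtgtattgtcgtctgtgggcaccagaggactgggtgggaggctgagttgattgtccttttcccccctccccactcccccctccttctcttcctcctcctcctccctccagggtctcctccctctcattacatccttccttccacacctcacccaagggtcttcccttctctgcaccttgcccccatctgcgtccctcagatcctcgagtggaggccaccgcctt
Fxyd6, plus strand of chr9:45369935-45370234: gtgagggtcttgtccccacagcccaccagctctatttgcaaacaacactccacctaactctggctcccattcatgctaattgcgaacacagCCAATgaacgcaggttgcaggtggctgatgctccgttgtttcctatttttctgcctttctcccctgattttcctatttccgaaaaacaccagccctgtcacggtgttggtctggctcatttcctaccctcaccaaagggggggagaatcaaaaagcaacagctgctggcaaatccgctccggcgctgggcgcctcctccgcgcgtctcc
Atp1b1, minus strand of chr1:164458306-164458605: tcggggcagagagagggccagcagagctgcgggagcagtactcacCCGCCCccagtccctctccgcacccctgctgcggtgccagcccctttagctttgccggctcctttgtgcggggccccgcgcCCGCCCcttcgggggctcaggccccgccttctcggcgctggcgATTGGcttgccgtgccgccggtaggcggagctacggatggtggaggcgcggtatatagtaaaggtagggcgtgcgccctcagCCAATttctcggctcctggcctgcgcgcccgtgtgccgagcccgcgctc
The Fxyd1 window held 1 match, to TATAAA on the opposite strand, at 2 to 7 bases from the start site, and the Fxyd5 window held none. The Fxyd1 window lies inside the gene model, whose 5′ end is at 31057199, so it belongs to an inner start site. The start site of the Fxyd5 window is also inside its gene model, whose 5′ end is at 31042481. That window reaches into Fxyd7, whose 3′ end is at 31042513. In the Fxyd6 window CCAAT stood 159 to 155 bases before the start site. Atp1b1 had 4 matches, 2 to GGGCGG and 2 to CCAAT, and 31 CpG dinucleotides, against 6 in Fxyd1, 6 in Fxyd5, 12 in Fxyd6 and a median of 7 over the 32851 promoters in the table. Among all those promoters 13.6% held TATAAA, 35.7% GGGCGG, 37.4% CCAAT and 1.63% a CArG box. None of the promoters shown held a CArG box, which says only that these letters are not in these windows.

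Atp1b1 encodes the beta subunit that pairs with the alpha subunits in heart muscle. Atp1b1 (ENSMUSG00000026576) lies on the minus strand of chromosome 1, from 164437109 to 164458355. FPKM was 116, 107 and 99.7 in sham 1, 2 and 3, and 80.2, 94.5 and 94.8 in VO 1, 2 and 3. All VO libraries were below all sham libraries, by a margin that was small between sham 3 and VO 3. The means were 107 ± 7.95 and 89.9 ± 8.34 (SD, n = 3 each), and the log2 fold change was -0.26 (standard error 0.12, 95% interval -0.54 to 0.030, unadjusted p = 0.072, limma adjusted p = 0.424). It was -0.18 without VO 1, -0.16 with scaling by total fragments, -0.12 with TPM and -0.072 with quantile normalization. Overlap was judged on the deposited FPKM only, and so small a margin depends on the scaling between libraries. Per 1000 FPKM of the summed cardiomyocyte markers the direction turned. Atp1b1 was then at 4.14, 4.97 and 4.54 FPKM in sham 1, 2 and 3. In VO 1, 2 and 3 it was at 7.90, 5.08 and 6.45, higher without overlap. This turn depends on the markers summed. Myl7 and Actc1, the largest parts of the sum, had log2 fold changes of -0.81 and -0.86. Ryr2, at -0.13, was the only one of the 12 markers that fell less than Atp1b1. Whether Atp1b1 RNA per cardiomyocyte differed was not tested. The last 617 bases of Atp1b1 overlap Nme7 on the other strand, and the methods do not say that counting kept strand. Nme7 averaged 1.10 FPKM, and the effect of the overlap on the values of Atp1b1 was not tested.

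Atp1b3 encodes a beta subunit found in many tissues. Atp1b3 (ENSMUSG00000032412), on the minus strand of chromosome 9 from 96332655 to 96364442, had 63.3, 59.6 and 61.8 FPKM in sham 1, 2 and 3 and 62.0, 58.6 and 65.3 in VO 1, 2 and 3. The groups covered nearly the same range, and the log2 fold change, 0.0081 (standard error 0.099), had a 95% interval from -0.23 to 0.24, so a change of the size seen for Fxyd1 lies outside the interval. It had 2 promoter windows, with 34 and 39 CpG dinucleotides, at least as rich as the window of Atp1b1.

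Atp1b2 encodes the beta subunit also known as adhesion molecule on glia. Atp1b2 (ENSMUSG00000041329), on the minus strand of chromosome 11 from 69599736 to 69605942, had 8.75, 13.0 and 12.8 FPKM in sham 1, 2 and 3 and 11.5, 13.2 and 13.6 in VO 1, 2 and 3. Sham 1 was lowest, and the other 5 libraries lay between 11.5 and 13.6 FPKM. The log2 fold change was 0.17 (standard error 0.17, 95% interval -0.24 to 0.57, limma adjusted p = 0.656) and it turned to -0.019 without sham 1.

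**Figure D2:**
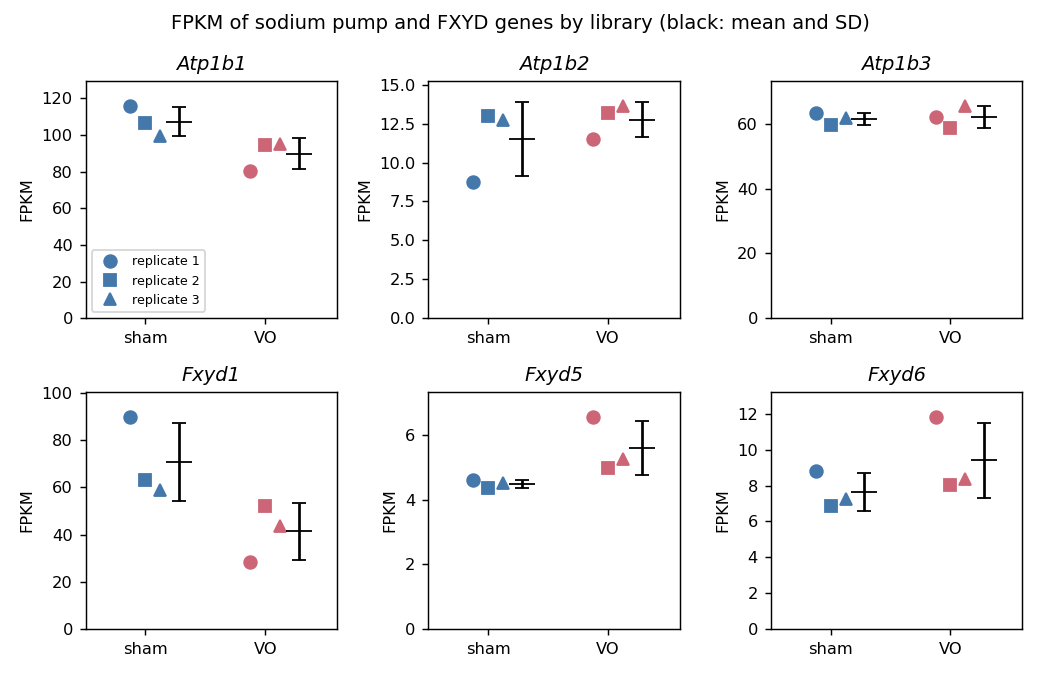
FPKM (y axes, from 0) of the 6 genes in each of 3 sham (blue) and 3 VO (red) libraries, with a marker shape per replicate and the mean and SD in black. Fxyd1 and Atp1b1 are lower and Fxyd5 is higher in all VO libraries, while the groups overlap in Fxyd6, Atp1b2 and Atp1b3.

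Counted together, 0 of the 6 genes had a limma adjusted p under 0.05, where 0.00792% of all tested genes did, and voom on recovered fragments also called 0 of them. At an unadjusted p under 0.05 it was 1 of 6, Fxyd1, against 12.0% of all tested genes (8.08% lower and 3.89% higher in VO). In the deposited FPKM the groups did not overlap in 3 of the 6, Fxyd1 and Atp1b1 lower and Fxyd5 higher, against 21.2% of all tested genes (12.9% lower and 8.25% higher). The median log2 fold change of the 6 genes was 0.087, beside -0.010 over all tested genes. With TPM in place of FPKM that background turned over: 486 genes were lower and 1085 higher at an unadjusted p under 0.05, in place of 1020 and 491, and the median of all genes moved to 0.13. Under TPM Fxyd1 was at -0.65, Atp1b1 at -0.12 and Fxyd5 at 0.44 on the log2 scale, so their directions held relative to that median too.

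**Figure D3:**
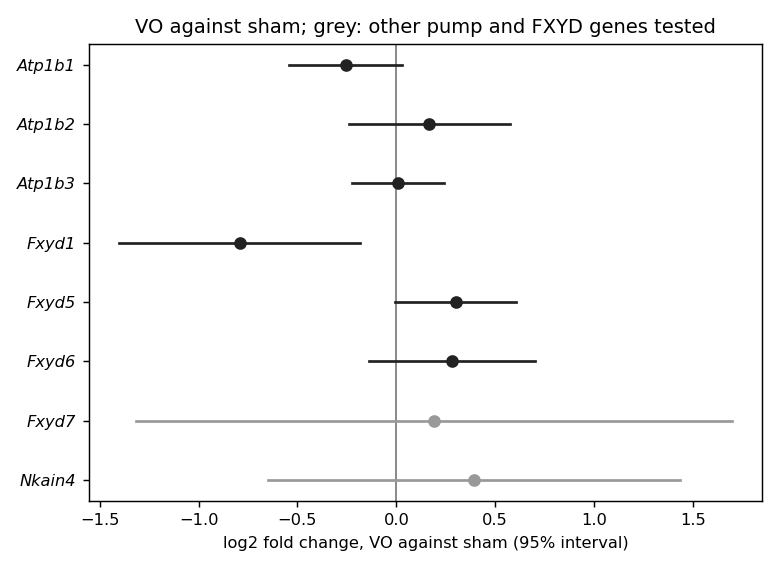
Log2 fold change of VO against sham (x axis) with 95% intervals from limma for the 6 genes (black) and for 2 other pump-related genes, Fxyd7 and Nkain4 (grey). The interval of Fxyd1 lies wholly below 0, from -1.40 to -0.18, and those of the other 7 genes include 0.

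The order of the levels, which FPKM allows because it is per length of the gene model, differed between groups in a single place. In sham the means ran from Atp1b1 at 107 FPKM through Fxyd1 at 70.7, Atp1b3 at 61.6, Atp1b2 at 11.5 and Fxyd6 at 7.65 to Fxyd5 at 4.49. Fxyd1 and Atp1b3 overlapped there, as did Atp1b2 and Fxyd6. In VO Fxyd1, at 41.4 FPKM, stood below Atp1b3, at 62.0, in each of the 3 libraries. Atp1b2 and Fxyd6 overlapped again in VO.

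Ratios within a library do not depend on the scaling between libraries. Fxyd1 RNA stood at 19.5, 14.5 and 13.1 times Fxyd5 RNA in sham 1, 2 and 3, and at 4.33, 10.5 and 8.26 times in VO 1, 2 and 3. The log2 ratio of Fxyd5 to Fxyd1 was -3.92 ± 0.30 in sham and -2.83 ± 0.66 in VO (SD, n = 3 each), a difference of 1.09 with no overlap between groups. The exact two-sided permutation p was 0.1, the smallest that 3 against 3 libraries can give. Without VO 1 the difference was 0.73.

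The mixture of the 3 FXYD genes departed most from that of the sham libraries in VO 1. Fxyd1 made up 87.0%, 85.0% and 83.4% of the summed FXYD FPKM in the sham libraries and 60.7%, 80.1% and 76.1% in VO 1, 2 and 3. The sum itself was 82.9 ± 17.8 FPKM in sham and 56.4 ± 9.30 in VO (SD, n = 3 each). Relative to the beta subunit, Fxyd1 was at 0.777, 0.594 and 0.592 times the FPKM of Atp1b1 in sham 1, 2 and 3 and at 0.353, 0.553 and 0.458 times in VO 1, 2 and 3. That log2 ratio differed by -0.54 between groups, with no overlap and the smallest possible exact permutation p of 0.1.

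Among the beta subunits the mixture shifted less. Atp1b1 gave 61.6%, 59.5% and 57.2% of the summed beta FPKM in sham 1, 2 and 3 and 52.2%, 56.9% and 54.6% in VO 1, 2 and 3. The mean share was 59.4% ± 2.21 in sham and 54.5% ± 2.34 in VO (SD, n = 3 each; exact permutation p = 0.1), and sham 3 and VO 2 nearly touched. Atp1b3 gave 34.2% ± 1.17 in sham and 37.7% ± 2.55 in VO, with overlap.

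**Figure D4:**
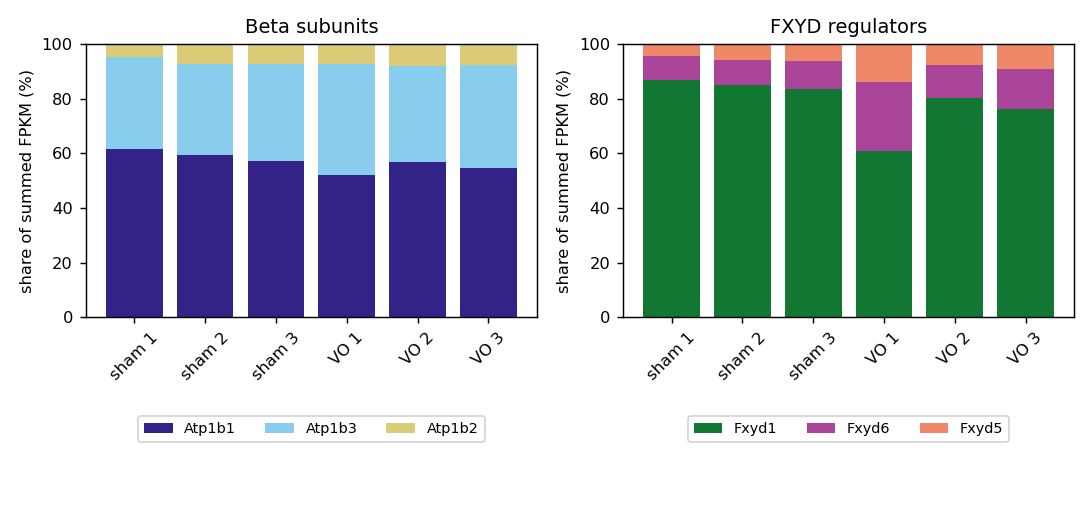
Share of the summed FPKM (y axes, percent) held by each beta subunit gene (left) and each FXYD gene (right) in the 6 libraries (x axes). Fxyd1 holds 83.4% to 87.0% in the sham libraries and 60.7% to 80.1% in the VO libraries, and the Atp1b1 share runs from 57.2% to 61.6% in sham and from 52.2% to 56.9% in VO.

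Most of the further pump-related genes described here were weakly expressed. Of 11 further pump subunits, FXYD genes and pump-interacting genes, 2 passed the filter and 9 did not. An unadjusted p under 0.05 was found in 0 of those 2, against 12.0% of all tested genes. Nkain4, a pump-interacting gene and the most abundant of them, had 5.65, 13.3 and 5.85 FPKM in sham 1, 2 and 3 and 17.3, 6.44 and 9.03 in VO 1, 2 and 3. Its groups overlapped widely (log2 fold change 0.39, standard error 0.44, limma adjusted p = 0.683). Fxyd7, the neighbour between Fxyd1 and Fxyd5, was near the detection limit with 4 to 21 fragments per library, and its log2 fold change of 0.19 had a standard error of 0.64 (limma adjusted p = 0.907). Fxyd3, next in the chromosome 7 cluster, lay below the filter with 25 to 75 fragments per library.

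Genes that carry sodium across the membrane by other routes differed in both directions. Of 13 listed genes 9 were tested. At an unadjusted p under 0.05 there were 2 lower and 1 higher in VO, against 12.0% of all tested genes. None had an adjusted p under 0.05, and the median log2 fold change was 0.13. Slc8a1, the sodium-calcium exchanger of the cardiomyocyte surface, was the most abundant of the list, with 52.1, 53.7 and 53.1 FPKM in sham 1, 2 and 3 and 38.5, 42.3 and 36.9 in VO 1, 2 and 3. It was lower by a log2 fold change of -0.43 (limma standard error 0.10, adjusted p = 0.344), and it too was picked by the study from these libraries. Slc12a4, a potassium-chloride cotransporter listed with the sodium carriers, was at 24.3 ± 1.59 FPKM in sham and 19.1 ± 1.55 in VO (log2 fold change -0.35, limma adjusted p = 0.404). Slc8b1, the mitochondrial sodium-calcium exchanger, was at 4.05 ± 0.480 FPKM in sham and 5.25 ± 0.190 in VO (log2 fold change 0.37, limma adjusted p = 0.404). Among the 9 tested genes the groups did not overlap in these 3, where 21.2% of all tested genes showed no overlap.

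Genes that phosphorylate, palmitoylate or anchor the pump and phospholemman mostly showed small differences. Of 19 tested genes, 1 was lower and 0 were higher in VO at an unadjusted p under 0.05, against 12.0% of all tested genes. Of the 19, 0 had a limma adjusted p under 0.05, and the median log2 fold change was 0.0025. The lower gene was Cav3, the muscle caveolin, with 91.2, 64.5 and 60.4 FPKM in sham 1, 2 and 3 and 32.0, 47.2 and 39.1 in VO 1, 2 and 3. Like Fxyd1 it was highest in sham 1 and lowest in VO 1, at -0.86 on the log2 scale (standard error 0.21) with a limma adjusted p of 0.344, and it is another gene the study chose from these libraries. Ppp1ca, a catalytic subunit of the phosphatase that acts on phospholemman, was the most abundant of the list in sham, at 160.4 ± 15.8 FPKM, and was at 152 ± 22.5 in VO. Prkaca, the catalytic subunit of protein kinase A, was at 84.3 ± 3.02 FPKM in sham and 73.4 ± 9.98 in VO, without overlap but with a limma adjusted p of 0.497. Of the 19 genes, 4 were lower and 1 was higher in VO without overlap, Cav3 and Prkaca among them. Over all tested genes 12.9% were lower and 8.25% higher without overlap.

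Among 7 genes of the aldosterone, glucocorticoid and thyroid hormone pathways that govern pump expression, 6 were tested. Of these 1, Sgk1, had an unadjusted p under 0.05, against 12.0% of all tested genes. Sgk1, a kinase induced by both steroid hormones, was at 24.8, 18.7 and 21.4 FPKM in sham 1, 2 and 3 and at 15.0, 17.2 and 18.0 in VO 1, 2 and 3. The difference was -0.36 on the log2 scale (standard error 0.14) with a limma adjusted p of 0.410, and the unadjusted p was not under 0.05 with TPM. Groups did not overlap in 1 of the 6 tested genes, Sgk1, where 21.2% of all tested genes showed no overlap. Nr3c1, the glucocorticoid receptor and the most abundant of the list, had 23.3 ± 2.38 FPKM in sham and 23.6 ± 1.89 in VO. The median log2 fold change of the tested genes was -0.075.

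The genes most like each of the 6 in profile were sought among 7156 tested genes with a mean of at least 5 FPKM, by the root mean square difference of the log2 values, each centred on its own mean, over the 6 libraries. Fxyd1 was closest to Myl7, the atrial myosin regulatory light chain, with a difference of 0.052 on the log2 scale, then to Atp5o, a subunit of the mitochondrial ATP synthase, at 0.061 and to Cdc34, a ubiquitin-conjugating enzyme, at 0.072. Myl7 had 8501, 5701 and 5531 FPKM in sham 1, 2 and 3 and 2586, 5056 and 3767 in VO 1, 2 and 3, the same order of libraries as Fxyd1. Fxyd5 was closest to Nras (0.029), Scpep1 (0.033) and Stx2 (0.037), all highest in VO 1.

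Fxyd6 was closest to the pseudogene Rpl39-ps (0.049), to Capg (0.068), an actin-capping protein, and to Ppic (0.069), a cyclophilin. Atp1b1 was closest to the RNA helicase gene Ddx1 (0.028), to Spns1 (0.028) and to Rcn3 (0.030), with log2 fold changes between -0.29 and -0.21. The 3 genes nearest to Atp1b3 were Cnot11 (0.018), Tmem30a (0.019) and Rabgap1 (0.023), all close to level across the 6 libraries, and those nearest to Atp1b2 were Sept8 (0.059), Npr1 (0.067) and Myadm (0.068). With 6 libraries and so many genes, near matches are common, so these are given as a description only.

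**Figure D5:**
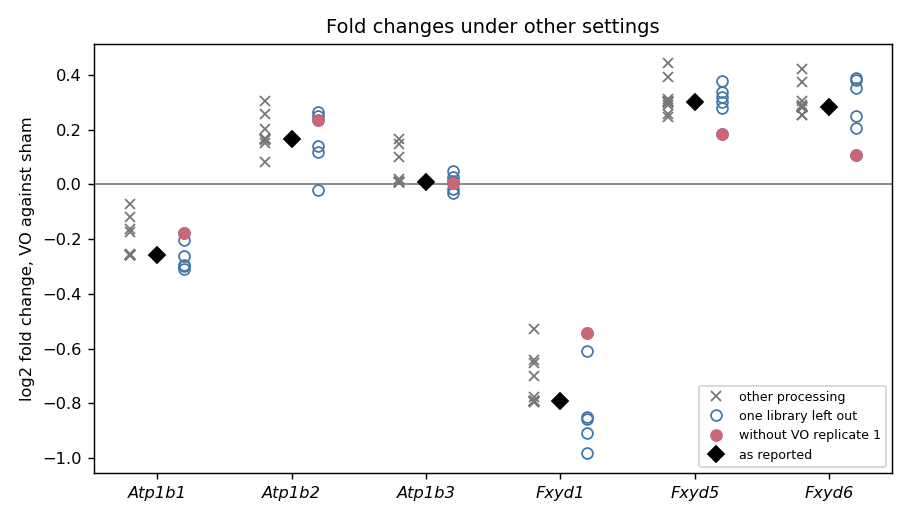
Log2 fold change of VO against sham (y axis) for the 6 genes (x axis) as reported (black diamonds), with other processing (grey crosses) and with one library left out (open circles, and filled red circles without VO 1). Fxyd1 and Atp1b1 stay below 0 and Fxyd5 and Fxyd6 above 0 throughout, nearer to 0 without VO 1, while Atp1b2 and Atp1b3 cross 0 when a library is left out.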

How the data were processed

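The submitters' notes and the study's methods state that 150-bp paired-end reads were aligned with HISAT2 2.0.5 and counted per gene with featureCounts 1.5.0-p3, on GRCm38. The authors deposited FPKM, computed from counts and gene length. The table broke off within its final gene, so 1 truncated line was dropped and 54093 genes were kept. Start and end were identical to GENCODE vM21 (GRCm38) for 98.4% of 54039 shared genes, and for all 6 genes described. FPKM times gene length was a whole multiple of 1 step per library for 100% of values above 0 (tolerance 0.01), which gave fragments per gene. The values already carried a scaling, with a median-of-ratios factor of 1.00 in each library.

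FPKM were filtered to a mean of at least 1, transformed as log2(FPKM + 0.1) and fitted with limma 3.58.1 (lmFit, eBayes with trend; R 4.3.3), VO against sham without covariates, called at an adjusted p under 0.05. The understated folds of low genes follow from the pseudocount of 0.1. FPKM were deposited, and the fragments recovered from them were tested with voom only, which called 1 gene. The study's own test, on counts, was not repeated. It called far more genes at an adjusted p under 0.05 than the 1 called by limma here, and the cause of this difference was not tested. Ratios were tested by exact permutation (scipy 1.17.1), and figures used matplotlib 3.10.9. The fit was tested on simulated data. The 6 genes, the lists and the tests were chosen with earlier results of these data known. Named were the 6 genes, list genes with an unadjusted p under 0.05 and no overlap, the most abundant gene of each list in sham, 3 profile neighbours per gene, genome neighbours and markers; Fxyd3, Fxyd7 and Prkaca, and 4 weakly expressed genes in the closing section, were named in addition, after their values were seen. Counting errors cover counting only. Some genes of the pump are not reported here.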

Additional observations from a re-analysis of the deposited data

How the results depend on the processing

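In all alternatives of the test across genes, Fxyd1 and Atp1b1 stayed lower and Fxyd5 and Fxyd6 higher in VO, and 0 of the 6 genes had an adjusted p under 0.05. The limma adjusted p of Fxyd1 ranged from 0.250 to 0.693 over its 20 alternatives. Since the groups of Fxyd1, Atp1b1 and Fxyd5 did not overlap, leaving out a single library could not turn their direction. Dropping each library in turn, the log2 fold change ran from -0.98 to -0.54 for Fxyd1, from -0.31 to -0.18 for Atp1b1, from 0.18 to 0.38 for Fxyd5, from 0.11 to 0.39 for Fxyd6, from -0.019 to 0.27 for Atp1b2 (below 0 without sham 1) and from -0.031 to 0.048 for Atp1b3 (also -0.015 without sham 2).

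The number of the 6 genes with an unadjusted p under 0.05 was 2, with Fxyd5 added, under TPM, array weights or scaling by total fragments, the last chosen after seeing the data, and 0 to 2 with 1 library left out (0 without sham 1, 2 without VO 2). Over all genes, the number with an adjusted p under 0.05 was 3 without the variance trend or with a minimum of 0.1 FPKM, 2 with a pseudocount of 1, and 0 with robust variance, with quantile normalization or without any 1 of the libraries. Leaving out 1 library, the number with an unadjusted p under 0.05 ran from 855 (without sham 1) to 1998 (without VO 2), and it was 2061 with no filter on FPKM. In the list of pump kinases and anchors, 2 genes had an unadjusted p under 0.05 with array weights, without the trend or with voom, 3 with quantile normalization and 1 to 2 with a library left out. In the hormone list the count was 0 with TPM, array weights or scaling by total fragments and 0 to 1 with a library left out. The cause of these shifts was not tested.

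The replicate numbers did not pair the libraries: the correlation across genes of the deviations from the group means was -0.11, 0.011 and -0.029 for numbers 1, 2 and 3. With the replicate number as a block, 0 genes had an adjusted p under 0.05, 932 had an unadjusted p under 0.05, the hormone list had 0 such genes, and Fxyd1 had an unadjusted p of 0.047. Scaling by total fragments gave 631 lower and 942 higher genes at an unadjusted p under 0.05. The counting error at the lowest count was 5.76% for Fxyd5, above the spread of its 3 sham libraries.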

Other observations

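Below the filter, and so not tested, were 9 of the further pump-related genes, 4 of the sodium transport list and 1 of the hormone list. Those named here were picked because their groups did not overlap, and in the rest the groups overlapped. Fxyd2, the FXYD protein of kidney tubules, which lies next to Fxyd6, was read with 5, 9 and 6 fragments in sham 1, 2 and 3 and with 12, 14 and 30 in VO 1, 2 and 3. Nkain1, a sodium pump interacting gene, had 18, 17 and 8 fragments in sham and 31, 22 and 20 in VO. Slc8a2, the neuronal sodium-calcium exchanger, had 17, 17 and 19 fragments in sham and 8, 12 and 11 in VO, and Scn2b, a sodium channel beta subunit, 6, 3 and 4 in sham and 11, 7 and 32 in VO. With so few fragments these are values only. The share without overlap, 21.2%, is that of the tested genes, and none was computed for genes below the filter.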
